A study of Mus musculus with 2 samples.

Results

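Retinoic acid signalling in the embryonic mouse limb was described here through the DNase-seq peaks of 10 genes: those for the synthesising enzymes Aldh1a2 and Aldh1a3, the degrading enzymes Cyp26a1 and Cyp26b1, the binding proteins Crabp1 and Crabp2, and the receptors Rara, Rarb, Rarg and Rxra. DNase-seq marks chromatin that the nuclease DNase I can cut. The genes were taken by name from 21938 protein-coding genes. A peak was given to a gene where it lay within 500 bp of any of its annotated transcription start sites (a TSS peak), or where its centre lay over 1 kb from every protein-coding start and the nearest such start, within 100 kb, was that gene's (a distal peak). This gave 207 of the 208674 peaks of replicate 1 and 216 of the 196593 peaks of replicate 2. The material was limb from healthy B6NCrl embryos at 14.5 days, with males and females pooled, as 1 group with no genetic change, treatment or other tissue. There were 2 libraries, labelled as biological replicates. Their tissue samples carry different identifiers but the same donor identifier, so the spread between them may be technical.

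Retinoic acid is made from retinol in a pair of oxidation steps, the last of them by the retinaldehyde dehydrogenases of the Aldh1a family, and is cleared by the cytochrome P450 enzymes of the Cyp26 family. Inside the cell it is carried by the Crabp proteins and bound by the nuclear receptors Rara, Rarb and Rarg, which pair with a retinoid X receptor such as Rxra on DNA. The pair recognises direct repeats of a hexamer, known as retinoic acid response elements, most often with a spacer of 5 bases (DR5), and also of 2 (DR2) or 1 (DR1). In the limb bud, Cyp26b1 is known to keep the distal mesenchyme low in retinoic acid, and retinoic acid later takes part in the loss of tissue between the digits and in cartilage formation.

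The direct repeats were searched as AGGTCA or AGTTCA or GGGTCA or GGTTCA, followed on the same strand by another of these after 1, 2 or 5 bases, on both strands of the mm10 genome. The sequences below hold the DR5 and DR2 repeats of the 10 genes that lay closest upstream of, or at, a start. The only repeat that lay in a peak shared by both replicates comes first, and the others are shown because they lay outside the peaks. Each is 30 bases long and reads 5′ to 3′ on the strand of its gene, with the hexamers of the named repeat in capitals.
Rarb, DR5 at chr14:16575513-16575529: cgggaagGGTTCAccgaaAGTTCActcgca
Cyp26a1, DR5 at chr19:37697776-37697792: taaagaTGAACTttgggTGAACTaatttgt
Cyp26a1, DR5 at chr19:37695909-37695925: ctgcagGGGTCAcaggcGGGTCAggctaaa
Rara, DR5 at chr11:98960008-98960024: caggcgAGTTCAgcaagAGTTCAgccgaat
Rarg, DR5 at chr15:102250817-102250833: aggtcagGGTTCAaagtgAGGTCAcggtat
Crabp2, DR2 at chr3:87947525-87947538: aagtccccAGTTCAccAGGTCAgggctgcc

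The strongest distal peaks of 4 of the genes follow, chosen to show an enzyme of each kind, a binding protein and a receptor. They are 150 bp each, on the strand of the gene, with GC boxes (GGGCGG), E-boxes (CAGCTG) and retinoid hexamers in capitals on either strand.
Aldh1a2, intron, chr9:71242176-71242325: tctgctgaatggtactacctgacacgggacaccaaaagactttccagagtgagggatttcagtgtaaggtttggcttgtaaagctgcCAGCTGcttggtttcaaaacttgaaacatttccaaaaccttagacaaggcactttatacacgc
Cyp26b1, intron, chr6:84583456-84583605: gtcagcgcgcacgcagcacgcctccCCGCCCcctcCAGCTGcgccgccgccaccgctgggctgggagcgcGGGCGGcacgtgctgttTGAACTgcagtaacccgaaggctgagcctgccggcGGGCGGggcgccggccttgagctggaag
Crabp2, downstream, chr3:87960916-87961065: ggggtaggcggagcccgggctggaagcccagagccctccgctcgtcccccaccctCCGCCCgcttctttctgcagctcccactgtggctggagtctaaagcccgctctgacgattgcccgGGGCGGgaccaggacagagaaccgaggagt
Rxra, downstream, chr2:27774456-27774605: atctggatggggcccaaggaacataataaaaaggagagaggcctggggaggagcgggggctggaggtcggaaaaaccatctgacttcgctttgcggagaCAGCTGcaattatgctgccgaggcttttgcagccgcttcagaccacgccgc

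Each library came as a list of peaks of 150 bp with a signal per peak in the authors' own unit and as a list of broader hotspots with a q-value. The median signal was 42 in replicate 1 and 31 in replicate 2, so signals were compared between the libraries by rank. The percentile given with a signal is its mid-rank among all peaks of the same library. Sharing required that a single peak of the other library cover 50% or more of a peak. A gene or promoter was called open where it had a shared TSS peak. The depth of the libraries is unknown, since no read counts were used, so a missing peak means only that none was called. In a tissue of many cell types, few cells with open chromatin and weak opening in many cells cannot be told apart. The labelled tissue was checked on marker genes. All 9 limb mesenchyme genes (Prrx1, Prrx2, Msx1, Msx2, Tbx5, Tbx4, Pitx1, Hoxd13, Hoxa13) were open, as were both cartilage genes (Sox9, Col2a1), the tendon gene Scx, both muscle genes (Myod1, Myf5) and both epidermal genes (Trp63, Krt5). Of the endothelial genes Kdr was open and Cdh5 was not. None of the 2 blood, 1 Schwann cell, 2 liver and 2 neuronal marker genes was open.

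All but 1 of the genes had an open promoter. Of the 10 genes, 9 had a shared TSS peak, against 65.1% of all protein-coding genes (14284 of 21938). Cyp26a1 was the exception, with no TSS peak in either replicate. Counting starts of protein-coding transcripts over 1 kb apart as separate promoters, the 10 genes had 21, of which 14 were open and 7 were not. The same count of promoters was not made over all protein-coding genes. The strongest TSS peak of the 9 open members had a median signal of 96 in replicate 1 and 67 in replicate 2. Over 14277 open genes with TSS peaks in both libraries the medians were 117 and 90, so the typical retinoic acid gene promoter had a lower signal than the typical open promoter.

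**Figure D1:**
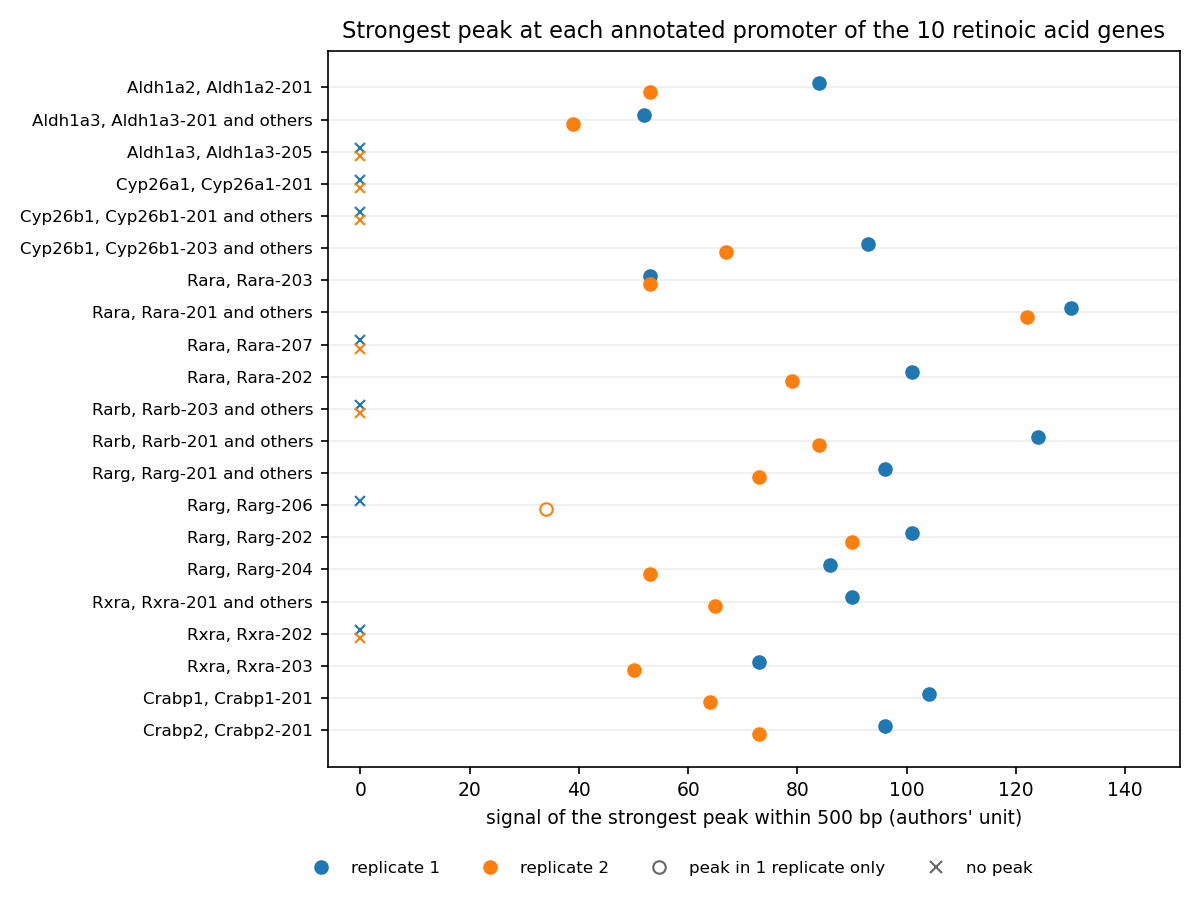
Signal of the strongest peak within 500 bp of each of the 21 annotated promoters of the 10 genes, in the authors' unit. Filled points are promoters with a shared peak, the open circle is a peak of 1 replicate only, and crosses at 0 are promoters with no peak. The highest pair is at the Rara-201 promoter (130 and 122), and the lowest filled point is Aldh1a3 in replicate 2 (39).

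Both synthesising enzymes had an open promoter with a signal near the low end of the members. Aldh1a2, the main embryonic retinaldehyde dehydrogenase, had its shared TSS peak 438 bp upstream of the start of Aldh1a2-201, where replicate 1 had 84 and replicate 2 had 53. The percentiles of that peak were 87.8 and 82.2. Other peaks at the Aldh1a2 start were not shared: in replicate 1 peaks of 47 and 43 lay just inside the gene, and in replicate 2 a peak of 22. A hotspot of 2499 bp covered the start of Aldh1a2 in replicate 1, and the widest one there in replicate 2 was 366 bp. Both libraries had the upstream peak, and they differed in the width of the hotspots called. Replicate 2 also had peaks within the span of that wide hotspot, and those from 1.3 to 2.1 kb past the start were shared.

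Aldh1a3, a related dehydrogenase, was the weakest of the open members. Its outer promoter had a shared peak of 52 and 39 (replicates 1 and 2), at percentiles of 65.7 and 66.3. The signal was above that of only 6.34% and 8.90% of open genes. The hotspots there had −log10 q-values of 4.42 and 3.12, whereas those at the other open gene starts of the pathway mostly reached the ceiling of 100. The inner promoter of Aldh1a3-205 had no peak in either library.

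The degrading enzymes differed. Cyp26a1 had neither a peak nor a hotspot within 500 bp of the start of Cyp26a1-201 (chr19:37697798) in either replicate. The gene body of Cyp26a1 held no shared peak, but a peak of 42 in replicate 1 alone lay in a coding exon of the gene. The peaks closest to the repeat at its start lay 1283 bases away in replicate 1 and 4590 bases away in replicate 2. Cyp26b1, in contrast, had 5 TSS peaks in each replicate and all 5 were shared. They lay around the inner starts of Cyp26b1-203, Cyp26b1-204 and Cyp26b1-205 (chr6:84587680 to 84588638 on the minus strand). The strongest reached 93 in replicate 1 and 67 in replicate 2, and the weakest 39 and 25. The outer promoter of Cyp26b1-201 and Cyp26b1-202, at chr6:84593746 to 84593908, had no peak or hotspot in either library. The open chromatin of Cyp26b1 thus lay about its inner starts in both libraries.

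Each binding protein gene had an open promoter. Crabp1 had 1 TSS peak in each replicate, at the start itself, with signals of 104 and 64 and percentiles of 94.0 and 88.8. Crabp2 had a shared peak 55 bp upstream of Crabp2-201, with signals of 96 and 73 and percentiles of 92.0 and 92.2. A further shared Crabp2 peak lay in a coding exon, 427 bp past the start of a retained-intron transcript, with signals of 84 and 75. Crabp1 ranked lower in replicate 2 than in replicate 1, and Crabp2 ranked alike in both.

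Of the 21 promoters, 13 belonged to the receptor genes. Rara is expressed widely, and its promoter at Rara-201 and Rara-204 had the strongest TSS peak of all members in both libraries, at 130 and 122, with percentiles of 98.5 and 99.7. Of its 4 promoters 3 were open. The outermost Rara promoter (Rara-203) had a peak of 53 in both replicates, and the Rara-202 promoter had 101 and 79. Only the Rara-207 promoter had no peak, and the outermost promoter was the weaker end of an otherwise strongly open gene.

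Rarb, the receptor gene best known as a target of retinoic acid, opened at its inner promoter only. The shared peak chr14:16575496-16575645, 28 bp upstream of the start of Rarb-201, reached 124 in replicate 1 and 84 in replicate 2 (percentiles of 97.4 and 94.8). A second shared Rarb peak, 86 bp upstream of the start of Rarb-206, had signals of 76 and 49. The outer promoter of Rarb-203 and Rarb-204, at chr14:16819005 to 16819156 and some 243.6 kb upstream of the main peak, had no peak or hotspot. An antisense non-coding gene, Gm48162, also starts near the inner promoter, and its opening and that of Rarb cannot be told apart.

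Rarg, known from skin and cartilage, had shared peaks at 3 of its 4 promoters. The strongest lay at the Rarg-202 start, with signals of 101 and 90. At the outermost promoter (Rarg-201 and Rarg-205) the signals were 96 and 73, and at Rarg-204 they were 86 and 53. The Rarg-204 peak was centred 422 bp upstream of the start in both replicates. A peak of 48 nearer to that start, 42 bp upstream, was in replicate 1 only. The remaining Rarg promoter (Rarg-206) had a peak of 34 in replicate 2 and none in replicate 1. Every open Rarg promoter had a percentile of 82.2 or more in both libraries, while the Rarg-206 peak stood at 57.1.

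Rxra, the shared partner of the retinoic acid receptors, had 2 of 3 promoters open. Around the outer starts (Rxra-201, Rxra-204 and Rxra-206) the strongest peaks had signals of 90 and 65, the latter next to the shared ones. The Rxra-203 promoter had 73 and 50, from a peak centred 488 bp (replicate 1) and 508 bp (replicate 2) past the start. The Rxra-202 promoter had no peak. A shared peak in a non-coding exon, beside the start of the processed transcript Rxra-205, had signals of 82 and 60. Across the 10 genes, Aldh1a2, Crabp1 and Crabp2 had a single promoter that was open, and in Rarb and Cyp26b1 the outermost promoter was closed and an inner one open.

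The distal peaks were many. The 10 genes had 122 shared distal peaks in 118 separate regions, with a median of 11.5 and a mean of 12.2 per gene, against 1 and 3.46 over all protein-coding genes. The lowest count of a member was 5, and 24.8% of all genes had at least 5. All 10 members pass that cut only because it equals their own minimum. The territory of a gene was the sequence nearest to it within 100 kb, without 1 kb on either side of each start. Territories also were larger for the members, with a median of 113 kb against 40.7 kb. Per 100 kb of territory the members had a median of 11.5 shared distal peaks, against 3.81 over the 18801 genes with a territory of at least 10 kb. Among the 50000 peaks of highest signal in each library, 45 shared distal peaks of the members were left, with a median of 3.5. The same cut was not applied to all genes, so these values have no background beside them.

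**Figure D2:**
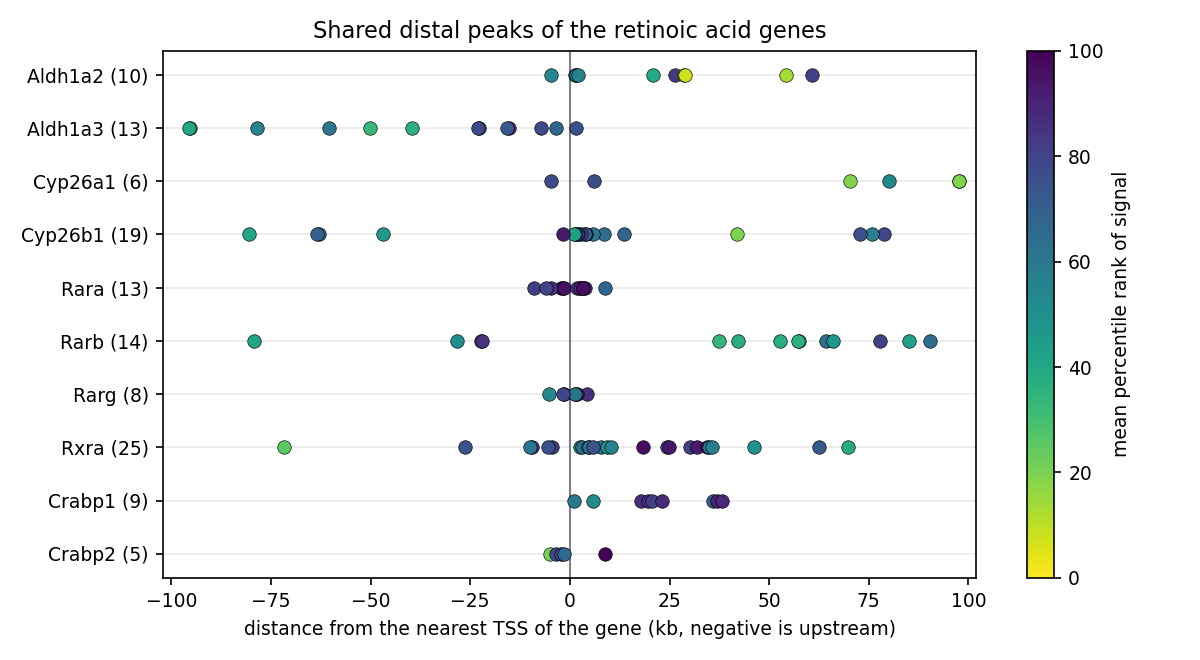
Each point is 1 of the 122 shared distal peaks, placed by its distance in kb from the nearest start of its gene (negative is upstream) and coloured by the mean of its percentile ranks in both replicates. Counts stand in parentheses. The Rara and Rarg points lie within 10 kb of a start, and the Rarb points all lie over 20 kb away.

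Rxra led with 25 shared distal peaks, 12 in its own introns and 13 between genes. The strongest, printed above, lay between genes 34.3 kb downstream of the nearest Rxra start, and reached 126 in replicate 1 and 92 in replicate 2. The next, in an intron 18.4 kb from the same start, had 115 and 100. From 24.3 to 35.7 kb past that start, 7 shared Rxra peaks followed each other downstream of the gene, and 4 of them had a signal of 80 or more in replicate 1. The Rxra distal signals otherwise reached down to 32 and 22. The nearest start of another gene to the strongest peak was that of Col5a1, 111.9 kb away.

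Cyp26b1 had 19 shared distal peaks. In its own introns lay 10 of these and 1 in a non-coding part of its exons, and 10 of the 19 were within 10 kb of a start. The strongest, 4.1 kb inside the gene from the nearest start, had signals of 114 and 82 and percentiles of 95.8 and 94.4. Another, between the inner and outer promoters, had 104 and 73. Beyond the gene, 3 peaks lay 72.9 to 78.9 kb downstream with signals of 47 to 70 in replicate 1 and 34 to 49 in replicate 2. Upstream, 4 shared peaks assigned to Cyp26b1 lay in introns of the neighbouring gene Exoc6b, whose own start was 219.7 kb from the farthest of them. In replicate 2 alone Cyp26b1 had 34 distal peaks and in replicate 1 alone 27. The Cyp26b1 locus thus held an inner group of strong peaks and weaker groups on both sides.

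Rarb had 14 shared distal peaks spread over the widest territory of the members, 371 kb, and none was within 10 kb of a start. The strongest, 22.0 kb upstream of the outer promoter, had signals of 70 and 69. An intron peak 22.4 kb upstream of the inner promoter had 70 and 57. Per 100 kb Rarb had 3.78 shared distal peaks, close to the 3.81 of the median gene. Whether its count follows from the size of its territory was not tested. The count was 7 when only starts of the GENCODE basic set were used, and 25 and 32 in replicates 1 and 2 alone. The Rarb gene body held 20 shared peaks, of which the rule took 13, TSS peaks included. Of the rest, 6 were given to another gene and 1 lay over 100 kb from a start. A strong Rarb site with peaks in both replicates also is not among the 14. In an intron 20.0 kb from the nearest start, replicate 1 had a peak of 85 and replicate 2 had peaks of 71 and 69, within hotspots of 904 and 998 bp, but the peaks were offset and overlapped by less than the 50% required.

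The distal peaks given to Rara and Rarg lay close to their starts. All 13 shared distal peaks of Rara were within 10 kb of a start, 11 of them in its introns, at 32.9 per 100 kb of a territory of 39.6 kb. Their signals ran from 52 to 111 in replicate 1 and from 40 to 97 in replicate 2. The strongest Rara distal peak by rank, 3.4 kb past the Rara-202 start, had 107 and 97. All 8 of Rarg were within 10 kb too, at 52.7 per 100 kb of a territory of 15.2 kb, and the strongest had 96 and 76. Both genes lie among near neighbours, and the nearest-start rule gives peaks farther away to those neighbours. Both also have several starts, and 1 kb on either side of each start was left out. Their territories were among the smallest of the members. The density of Rara was above that of 99.7% of genes. The Rarg count was 4 among the 50000 strongest peaks of each library and 5 with hotspots in place of peaks.

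The enzymes of synthesis differed in where their distal peaks lay. Aldh1a2 had 10 shared distal peaks, 9 of them in its introns. The strongest was 26.5 kb inside the gene, with signals of 75 and 54, and the next was 60.7 kb inside, with 72 and 51. Just past the Aldh1a2 start, 3 peaks from 1.3 to 2.1 kb had signals of 50 to 57 in replicate 1 and 27 to 35 in replicate 2, within the wide hotspot of replicate 1. Of Aldh1a3's 13 shared distal peaks, 11 lay between genes, and 12 were upstream of the nearest start. The strongest by rank was 15.2 kb upstream, with 70 in both replicates. A pair at 22.7 and 23.0 kb upstream reached 85 and 65 in replicate 1, with 53 and 48 for replicate 2. With hotspots in place of peaks Aldh1a2 had 3, and in replicate 1 alone it had 17 distal peaks.

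Cyp26a1, whose promoter was closed, still had 6 shared distal peaks, with 10 distal peaks in each replicate alone. The strongest by rank lay 4.7 kb upstream in a coding exon of Cyp26c1, the gene next to it for an enzyme of the same family, where replicate 1 had 61 and replicate 2 had 50. That peak was 7.5 kb from the Cyp26c1 start, and Cyp26c1 had no TSS peak in either replicate. A peak 6.0 kb downstream of the nearest Cyp26a1 start had 80 and 40. The other 4 were 70.3 to 97.7 kb away with signals of 28 to 41 and 20 to 34. None of the 6 was among the 50000 strongest peaks of both libraries, and 2 lay within 50 kb.

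Of the binding proteins, Crabp1 had 9 shared distal peaks, all downstream of its start, and 14 distal peaks in replicate 2 alone. Between genes lay 7, in groups at 17.9 to 23.1 kb and 35.8 to 38.1 kb, and 6 of these 7 had signals of 72 to 87 in replicate 1 and 48 to 76 in replicate 2. The median percentiles over the Crabp1 distal peaks, 84.6 and 87.3, were the highest of the members in both replicates. Crabp2 had 5, against 8 distal peaks in replicate 1 alone, and 1 of the 5 was the strongest shared distal peak of all members in both replicates. It reached 137 in replicate 1 and 116 in replicate 2, at percentiles of 99.6 and 99.2. It lay 8.8 kb from a start of Crabp2 that belongs to a retained-intron transcript and 10.1 kb from the start of Nes, so the starts of both genes were at a like distance. From the Crabp2-201 start it was 12.3 kb downstream.

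The distal peaks differed in position from gene to gene. Of the 122, 63 lay in introns of the member itself, 53 between genes and 4 in introns of another gene, with 1 in a coding exon of another gene and 1 in a non-coding part of a member's exon. These classes were not counted over all shared distal peaks, so whether the shares are usual is unknown. Within 10 kb of a start lay 46.7% of them, against 34.9% of all 75905. All those of Rara, Rarg and Crabp2 did. These genes have the territories of 39.6, 15.2 and 17.9 kb, and the nearest-start rule gives peaks farther away to neighbouring genes. Their closeness thus follows largely from the rule. Of the 96 of the other 7 members 31 did (32.3%). The median percentile of the 122 peaks was 71.5 in replicate 1 and 69.3 in replicate 2, against 63.2 and 61.1 over all shared distal peaks. These are descriptions of 1 tissue, and no test was made.

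The replicates were compared over all peaks of the 10 genes. Of the 207 peaks in replicate 1, 149 were shared (72.0%), against 62.4% of all TSS and distal peaks. Of the 216 in replicate 2, 146 were shared (67.6%), against 66.8%. The ranks of the 149 shared peaks went together, with a Spearman rho of 0.888 across peaks of the same 2 libraries, against 0.877 over 99385 shared peaks. The peaks that were not shared were weaker. In replicate 1 the 50 distal ones had a median signal of 33.5, against 57.5 for the shared, and in replicate 2 the 64 had 24.5 against 41. Most of these, 42 and 51, lay outside every hotspot of the other replicate. Neither the signals nor the hotspots of unshared peaks were compared over all genes, so nothing here is particular to the members.

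**Figure D3:**
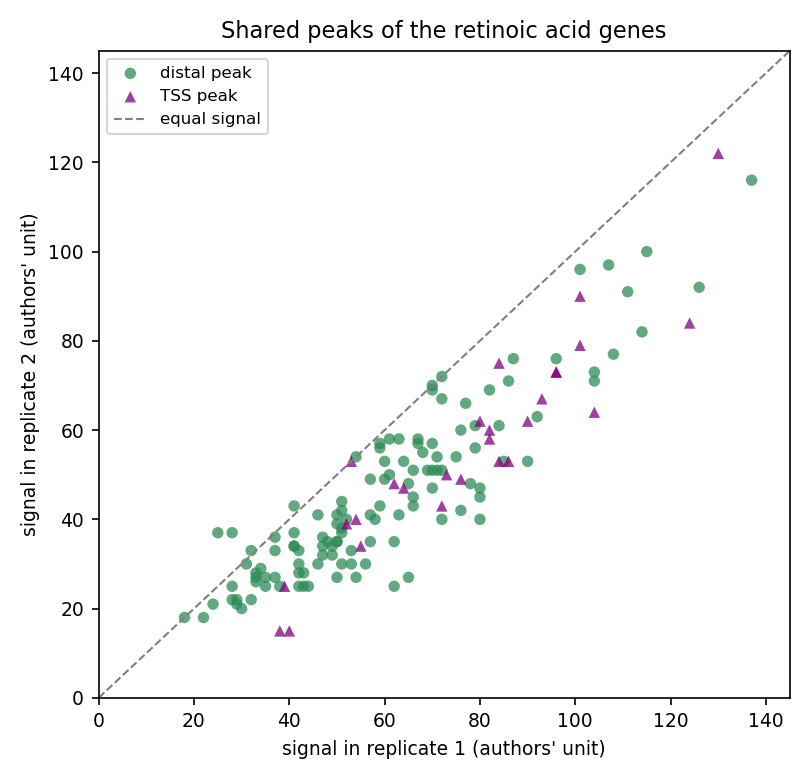
Signal of the 149 shared peaks of the 10 genes in replicate 1 (horizontal axis) and replicate 2 (vertical axis), in the authors' unit, with TSS peaks as triangles and distal peaks as circles. In 140 of the 149 the signal was higher in replicate 1, as it was in 92702 of 99385 shared peaks of all genes.

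Of the 149 shared peaks, 1 (0.671%) held a direct repeat of the hexamer with a spacer of 1, 2 or 5 bases, against 0.197% of all 99385. It was the Rarb promoter peak, which holds the DR5 shown first above. That DR5 is the response element known from the inner Rarb promoter. It lay 49 bp upstream of the start of Rarb-202 and 22 bp past the start of Rarb-201, in an exon. A DR5 was found in 4 of all 23480 shared TSS peaks. The replicate 2 peak at Rarb begins at chr14:16575516, which leaves 3 bases of the repeat outside it, so at the coordinates of replicate 2 no member peak held a whole repeat. A hotspot covered the Rarb repeat in both replicates. With AGGTCA as the only hexamer, no shared peak of the members held a repeat, and with spacers of 0 to 8 bases the Rarb peak was again the only one.

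The sequence nearest to the 10 genes within 100 kb, here with the surroundings of the starts included, held 45 such repeats: 21 DR1, 14 DR2 and 10 DR5. One of the 45 lay in a shared peak (2.22%), against 269 of 53450 over the genome (0.503%). The genome count, unlike that of the members, also took in sites over 100 kb from any protein-coding start. Of the 45, 18 lay at least in part in sequence that the reference masks as repetitive, and none of the 10 DR5 did. Over the genome 57.2% were so masked, and of the 22891 that were not, 0.965% lay in a shared peak, against 0.157% of the masked. Cyp26a1, itself a known target of retinoic acid through elements at its promoter, had 4 of the 10 DR5. One lay 14 bp upstream of its start and another 1.9 kb upstream, and neither was in a peak or hotspot of either replicate. The same sequence pattern was thus inside a shared peak at Rarb and outside all peaks at Cyp26a1.

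**Figure D4:**
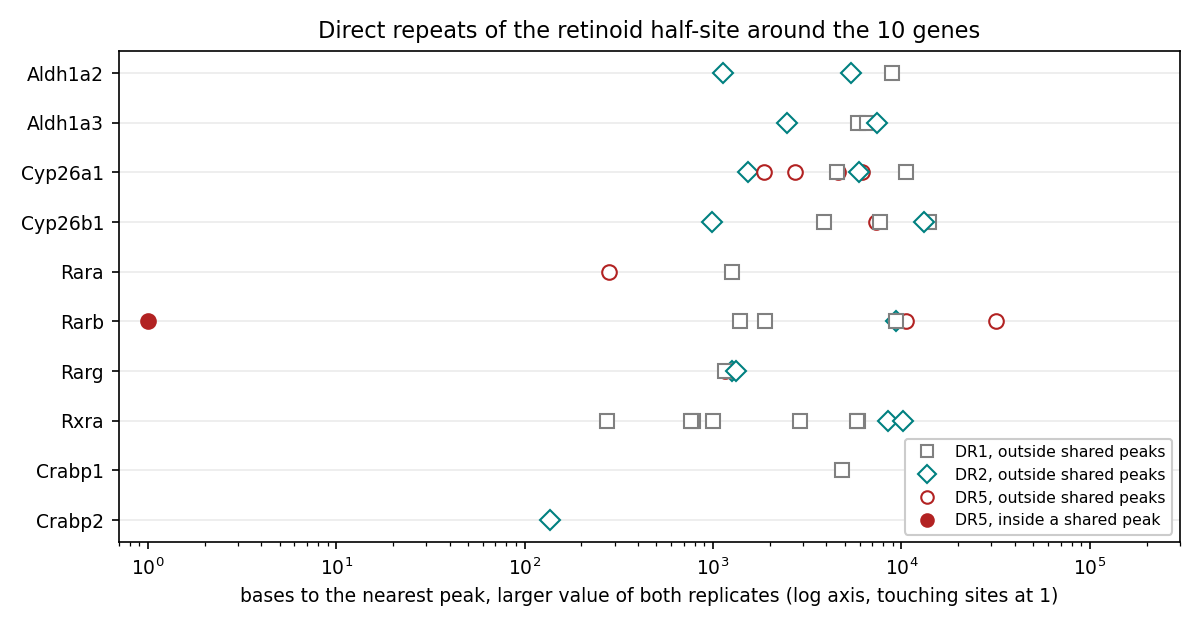
The 45 direct repeats by gene and by the number of bases to the nearest peak, taking the larger value of both replicates (log axis, with the site that touches peaks in both set at 1). The filled circle is the Rarb DR5, the only repeat within a shared peak. The next closest were those of Crabp2 (137 bases), Rxra (274 bases) and Rara (282 bases).

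Other repeats lay beside peaks. The Rara DR5 lay 396 bp upstream of the Rara-202 start and 282 bases from the nearest peak in both replicates. The Crabp2 DR2, 1134 bp upstream of its start, was 137 bases from a peak in replicate 1 and 57 in replicate 2. The Rarg DR5 lay 479 bp upstream of the Rarg-206 start, the promoter that was not open, and 1151 and 571 bases from a peak. A DR1 downstream of Rxra lay within a peak of replicate 1 alone. Except at Rarb and at that Rxra site, the repeats of the 10 genes did not touch a peak in either library.

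Among other motifs, the GC box, bound by Sp factors, was in 20 of the 122 shared distal peaks of the members (16.4%), against 6.84% of all shared distal peaks. It was in 5 of Rara's, 5 of Cyp26b1's, 3 of Rarg's and 3 of Crabp2's, and in none of Aldh1a2's, Aldh1a3's or Rarb's. Within 10 kb of a start, 31.6% of the members' distal peaks had it, against 8.81% of all, and farther away 3.08%, against 5.79%. This split was chosen after the shares were seen. The GC content of the members' distal peaks was 54.4%, against 49.7%. E-boxes with the core CAGCTG, a form bound by muscle and other bHLH factors, were in 24.6% against 20.1%, and the core motif of the insulator protein CTCF in 5.74% against 10.8%. The single hexamer was in 24 of the 122 (19.7%), against 23.5%, so the members' distal peaks held it no more often than others.

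The wider pathway was read from 24 other retinoid genes. Of these, 17 (70.8%) had a shared TSS peak, a share near the 65.1% of all protein-coding genes. All 8 receptors and cofactors were open, among them Rxrb and Rxrg. Of 10 genes for synthesis and storage 6 were open, including Rdh10, which makes retinaldehyde in the embryo, at 115 and 81 in replicates 1 and 2. Of 5 genes for binding and uptake 3 were open, including Stra6, the gene for a retinol transporter, with 69 and 60. Those without a shared TSS peak included Aldh1a1, Rdh1, Dhrs9, Bco1, Cyp26c1 and Rbp2. Rdh1 and Cyp26c1 had none in either library, and Aldh1a1, Dhrs9, Bco1 and Rbp2 had 1 weak peak in 1 library, with signals of 11 to 35.

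Shared distal peaks of these 24 genes had a median of 4 per gene, against 11.5 for the 10 members. By list the median was 4 for synthesis and storage, 7 for binding and uptake, and 11 for receptors and cofactors. The single other breakdown gene had 3. The limb mesenchyme marker genes had a median of 12, so many distal peaks were not particular to the members. Ncoa2, a coactivator of nuclear receptors, had 20, and Dhrs3, which reduces retinaldehyde back to retinol, had 19. Dhrs3 thus had as many as Cyp26b1.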

How the data were processed

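DNase-seq was measured in 2 limb libraries of 1 group. Per the labels, alignments and calls were made on mm10 in each library separately (the sources used here name no aligner or peak caller). Peak signal as deposited by the authors is a whole number in the authors' own scaling, never above the peak width of 150 bp. For hotspots the authors deposited a −log10 q-value that stops at 100, a ceiling reached by 33.0% of hotspots in replicate 1 and 28.8% in replicate 2. Peaks that repeat the coordinates of another (47 and 27) were kept, and none of them belongs to the members.

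Starts and features came from GENCODE M21 on GRCm38.p6, and sequence from the same assembly. As a check of the build, 99.9% of 59255 annotated start codons read ATG. Python 3.11.15 with numpy 2.4.6, scipy 1.17.1 and pysam 0.24.0 was used, and the peak, sharing and repeat counts were tested on simulated data. Named were all members, for each the 2 distal peaks of highest mean rank and the farthest, every shared peak with a repeat, and of the other retinoid genes those not open and the 3 with the most distal peaks, except that some of these genes are not reported here. Further peaks, repeats and genes were chosen after their values were seen. The members and lists were chosen with earlier results of these data known. With 1 group, no test between conditions was possible and none over genes or peaks was made. Alternatives changed the overlap, the windows, the starts, the library and the motif.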

Additional observations from a re-analysis of the deposited data

How the results depend on the processing

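The count of open members ran from 7 (outermost 5′ ends) to 9, and Cyp26a1 was open under none of the 9 alternatives. The counts of open promoters (11 to 16) and of other open retinoid genes (12 to 19) stayed within 1.5 times the reported ones. The 16 came from splitting promoters over 500 bp apart and was out of 25, whereas the reported 14 was out of 21. Shared distal peaks of the members, 122 as reported, were 45 among the 50000 peaks of highest signal, with a median of 3.5 per gene, and 172 to 185 without replicate 2 or replicate 1. The median per gene was 14.5 to 16 in single replicates. Of 80 alternative counts for single genes, 22 moved by over 1.5 times. The share of the members' peaks found again, 72.0% as reported, was 75.8% with an overlap of at least 1 bp, 86.3% among the strongest peaks and 67.6% from replicate 2. The share with a direct repeat was 1.59% among the strongest peaks, 0% at the coordinates of replicate 2, 0% with AGGTCA alone, and 0% to 0.966% in single replicates, where replicate 1 alone added the Rxra site to that of Rarb. Depth is unknown and limits what a missing peak shows. No paired analysis was possible because there is 1 group.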
